A study of Mus musculus with 24 samples.

Results

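The genes examined here make cholesterol, sense it and move or store it: 28 genes of the mouse cholesterol pathway, listed by name when earlier results of these data were known, out of 54532 genes in the deposited table. All 28 were found by gene identifier and all passed the limit for testing, an FPKM (fragments per kilobase per M mapped fragments) of 1 or more in 4 or more of the 24 libraries, which 11377 genes passed. The list is named for synthesis and uptake, but it holds enzymes, sterol sensors, a carrier and an esterifying enzyme, and no lipoprotein receptor. Cells build cholesterol from acetyl-CoA through mevalonate, isoprenoid diphosphates, squalene and lanosterol. When membrane sterol is low, Scap carries the transcription factor SREBP2 (gene Srebf2) out of the endoplasmic reticulum, it is cut free, and it switches on nearly every enzyme of the route. When sterol is plentiful, the Insig proteins hold Scap back, and spare cholesterol is esterified for storage, which macrophages do readily.

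The samples were primary macrophages derived from C57BL/6 bone marrow over 7 days with L929-conditioned medium. Their genotype was Trem2(-/-), here KO, or WT, Trem2 being a lipid-binding receptor of macrophages. The labels do not describe the KO allele, or tie libraries to animals or cultures. Each genotype had S1P (sphingosine-1-phosphate at 500 nM), ACM and untreated groups, with 4 libraries in each of the 6 groups. ACM is serum-free medium left for 24 hours on AML12 hepatocytes that palmitate at 800 µM had made apoptotic, and both treatments lasted 24 hours. No group analysed here received medium from AML12 cells without palmitate, and no vehicle is named for S1P. The p-values therefore reflect only library-to-library spread, which could be technical. In these bulk samples fewer expressing cells and less RNA per cell cannot be told apart.

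Libraries held 16.6 to 25.2 M reads, recovered from the FPKM steps. Trem2 itself was checked first. Its FPKM was 39.6 ± 0.983 with S1P and 39.2 ± 1.67 with ACM in KO cells, against 103 ± 4.70 and 90.1 ± 2.73 in WT cells (SD, n = 4 each). In untreated cells it was 35.7 to 40.2 in 3 KO libraries, 79.6 in the library labelled KO untreated 81, and 74.5 to 82.7 in WT. That library goes against its label, so its values are given apart where single libraries are listed. Comparisons are given with and without it where it matters. All KO libraries carry higher library numbers than all WT libraries and each group has its own run of numbers, so genotype, treatment and any order of preparation cannot be told apart. The 7 macrophage markers all passed the limit, with a summed FPKM of 4367 to 4559 in KO S1P, 4260 to 4633 in KO ACM, 4068 to 5978 in KO untreated, 4151 to 5730 in WT S1P, 5776 to 6503 in WT ACM and 7231 to 7457 in WT untreated libraries. Lyz2 made up most of these sums, averaging 2907 FPKM in KO S1P, 2907 in KO ACM, 3083 in KO untreated, 3280 in WT S1P, 4496 in WT ACM and 5792 in WT untreated cells. The KO untreated sum of 5978 was that of KO untreated 81. Lyz2 was at 4258 FPKM in that library, against 2495 to 2941 in the other KO untreated libraries. In WT cells limma called 5 of the 7 markers lower and 1 higher with S1P (median difference -0.37), and 2 lower and 2 higher with ACM (median -0.00). Over all genes it called 27.2% lower and 25.2% higher with S1P, and 9.85% lower and 12.2% higher with ACM. In KO cells limma called 0 of the 7 markers with either agent, and 0.00879% of all genes with each. At an unadjusted p under 0.05 there were 0 markers for S1P and 1 for ACM. Shares of all genes at that unadjusted limit were not taken, here or below. Under S1P, KO cells were higher than WT cells for 4 of the 7 markers and lower for 1 (median 0.44). Over all genes 26.9% were higher and 25.4% lower. Under ACM, KO cells were higher for 1 marker and lower for 3 (median -0.06), against 12.5% and 15.5% of all genes. The part of these markers in the results was not tested. Hepatocyte markers summed to at most 1.68 and fibroblast markers to at most 0.0797 in any library, and Cyp2e1, Fgg and Lum were at 0 throughout. Granulocyte markers summed to 2.33 to 6.25 in KO and 0.878 to 2.57 in WT libraries. The lowest KO sum, 2.33, was that of KO untreated 81. Ngp was at 0.493 FPKM there, against 1.55 to 1.82 in the other KO untreated libraries. Dendritic cell markers summed to at most 0.914 and lymphoid markers to at most 0.302. Means of KO untreated cells here and below include KO untreated 81.

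Promoters of sterol genes are known to carry sites for SREBP beside sites for NF-Y, a factor that binds CCAAT boxes. RefSeq start-site windows (GRCm38.p6, 250 bases before to 50 after the start) were available for 23 of the 28 genes, and they were searched on both strands. CCAAT was present in a window of 20 of the 23 genes (86.96%), against 43.1% of the 8359 tested genes with a window and 37.4% of all 32851 windows. The Sp1 box GGGCGG was present for 20 of 23 (86.96%), against 69.5% of tested genes and 35.7% of all windows. The strict sterol element TCACNCCAC was found for 1 gene, Hmgcs1, against 1.41% of tested genes and 1.24% of all windows. Genes can have more than 1 window, each match is only a match of letters, and none of the motifs overlap in the windows shown. The 250 bases before the start are shown for Hmgcs1, which holds the strict element, and for Mvk and Nsdhl, which hold repeated CCAAT boxes. Capitals mark TCACNCCAC and CCAAT on either strand, CCAAT reading ATTGG on the opposite strand. All 3 genes lie on the plus strand, Hmgcs1 at chr13:119690101-119690350, Mvk at chr5:114444019-114444268 and Nsdhl at chrX:72918271-72918520.
Hmgcs1: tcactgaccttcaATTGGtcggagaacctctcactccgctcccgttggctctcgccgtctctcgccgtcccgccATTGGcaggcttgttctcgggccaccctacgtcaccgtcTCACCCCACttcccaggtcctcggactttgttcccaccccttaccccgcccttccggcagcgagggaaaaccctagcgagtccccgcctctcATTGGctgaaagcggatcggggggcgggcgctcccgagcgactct
Mvk: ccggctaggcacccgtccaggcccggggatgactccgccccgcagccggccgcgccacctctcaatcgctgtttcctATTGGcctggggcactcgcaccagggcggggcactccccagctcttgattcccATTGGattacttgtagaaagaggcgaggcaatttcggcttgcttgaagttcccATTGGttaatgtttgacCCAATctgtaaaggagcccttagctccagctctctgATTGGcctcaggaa
Nsdhl: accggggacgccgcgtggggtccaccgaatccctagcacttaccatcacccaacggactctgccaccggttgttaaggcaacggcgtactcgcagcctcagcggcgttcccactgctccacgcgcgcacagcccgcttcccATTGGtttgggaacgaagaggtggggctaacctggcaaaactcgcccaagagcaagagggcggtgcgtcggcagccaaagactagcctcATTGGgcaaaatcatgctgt
All 3 genes fell in WT cells with both treatments. Hmgcs1 makes HMG-CoA, Mvk phosphorylates mevalonate, and Nsdhl, on the X chromosome, removes carbon from the sterol ring system. Their differences in log2(FPKM + 1) with S1P were -0.99 ± 0.06, -0.82 ± 0.06 and -0.82 ± 0.07 (SE, 4 libraries against 4). The windows of Insig2, Soat1 and Ggps1, which rose with S1P in WT cells, also held CCAAT. The 3 genes whose windows held no CCAAT were Acat2 and Aacs, which fell, and Scap, which rose.

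The main comparison set the response of the pathway to each agent in cells labelled Trem2(-/-) beside that in WT cells. In WT cells S1P lowered 23 of the 28 genes and raised 4, and ACM lowered 21 and raised none, by limma with an adjusted p under 0.05 over all 11377 genes. Over all genes, S1P lowered 27.2% and raised 25.2% (52.4% in all), and ACM lowered 9.85% and raised 12.2% (22.1% in all). The median difference over the 28 genes was -0.66 in log2(FPKM + 1) with S1P and -0.33 with ACM, while that of all 11377 genes was 0.00377 with S1P and -0.00130 with ACM. Every WT S1P library lay below every WT untreated library for 22 of the 28 genes (23.3% of all genes), every WT ACM library did so for 20 (13.6%), and WT means ran S1P, ACM, untreated from low to high for 23 (28.9%). In KO cells neither S1P nor ACM changed any of the 28 genes by that test, with medians of -0.01 and 0.02. That share is near the background, since limma called 1 of 11377 genes (0.00879%) in KO cells with S1P and 1 (0.00879%) with ACM. At an unadjusted p under 0.05 there were 0 of 28 genes with S1P and 1 with ACM, Lss at 0.09 ± 0.04. No share of all genes was taken at that limit, so these counts have no background beside them. The 95% intervals of the 28 KO differences ran from -0.26 to 0.20 with S1P and from -0.34 to 0.24 with ACM. Fdps gave the lowest bound in each case. Group means of treated KO cells stood at 84.1% to 107% of the KO untreated mean over the 28 genes. Without KO untreated 81 limma again called 0 of the 28 genes in either KO comparison, with 0 genes for S1P and 3 for ACM at an unadjusted p under 0.05, and called 0.185% and 0.0439% of all genes.

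**Figure D1:**
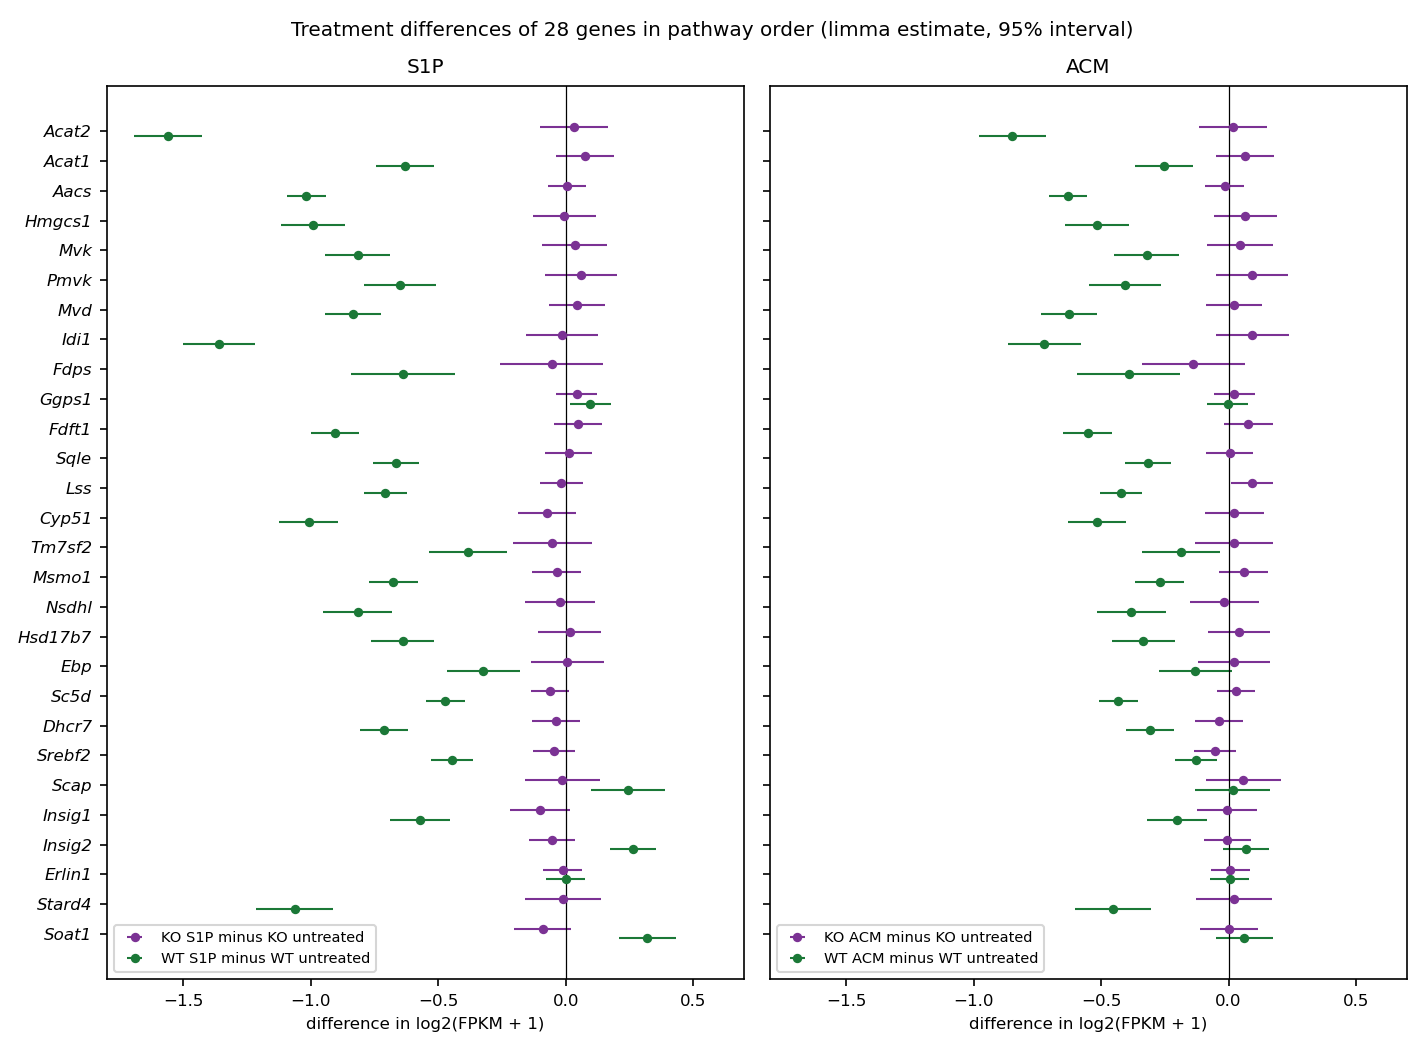
Differences in log2(FPKM + 1) between treated and untreated cells for the 28 genes in pathway order from top to bottom, with S1P on the left and ACM on the right; points are limma estimates with 95% intervals, purple for KO and green for WT. The KO points lie between -0.14 and 0.09 in both panels, while most WT points lie left of 0, further with S1P, and Ggps1, Scap, Insig2, Erlin1 and Soat1 lie at or right of 0.

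The route begins with enzymes that join and activate acetyl units. Acat2 (chromosome 17, 12942890 to 12960747, GRCm38, minus strand) encodes the cytosolic thiolase that makes acetoacetyl-CoA, the first intermediate. In KO cells Acat2 had an FPKM of 21.4, 22.6, 22.1 and 21.4 with S1P, 21.7, 21.6, 21.3 and 22.1 with ACM and 20.9, 21.4 and 21.7 untreated, with 21.5 in KO untreated 81. The WT libraries had 8.39, 7.01, 6.88 and 5.68 with S1P, 11.7, 11.3, 12.4 and 12.7 with ACM and 21.1, 21.7, 23.2 and 23.8 untreated. All WT S1P libraries lay below all WT ACM libraries, these lay below all WT untreated libraries, and the 3 KO groups overlapped each other. The WT differences were -1.56 ± 0.06 (adjusted p = 5.3e-14) with S1P and -0.85 ± 0.06 (adjusted p = 1.21e-08) with ACM, and the mean FPKM with S1P was 31.2% of the untreated mean. In KO cells the differences were 0.03 ± 0.06 (adjusted p = 0.917) with S1P and 0.02 ± 0.06 (adjusted p = 0.96) with ACM. Aacs (chromosome 5, 125475814 to 125517410, plus strand) encodes the cytosolic synthetase that activates the ketone body acetoacetate for lipid synthesis. In KO cells Aacs had an FPKM of 25.7, 26.04, 25.6 and 24.6 with S1P, 24.5, 24.8, 25.8 and 25.3 with ACM and 26.3, 24.1 and 26.2 untreated, with 24.99 in KO untreated 81. WT cells gave values of 12.6, 12.5, 13.1 and 11.9 with S1P, 16.3, 16.5, 16.2 and 18.02 with ACM and 25.9, 26.8, 26.2 and 26.8 untreated. The WT groups were again fully separated in the order S1P, ACM, untreated from low to high, and the KO groups overlapped. Its WT differences were -1.02 ± 0.04 (adjusted p = 1.18e-14) with S1P and -0.63 ± 0.04 (adjusted p = 2.57e-10) with ACM, the smallest adjusted p of the 28 genes in each comparison. Acat1, the mitochondrial thiolase that also serves ketone body and isoleucine breakdown, had smaller differences, -0.63 ± 0.05 with S1P and -0.25 ± 0.05 with ACM. It averaged 19.9 ± 1.18, 19.7 ± 0.353 and 18.8 ± 0.370 FPKM in KO S1P, ACM and untreated cells, and 13.0 ± 1.63, 17.1 ± 0.563 and 20.6 ± 0.427 FPKM in WT S1P, ACM and untreated cells (SD, n = 4 each).

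**Figure D2:**
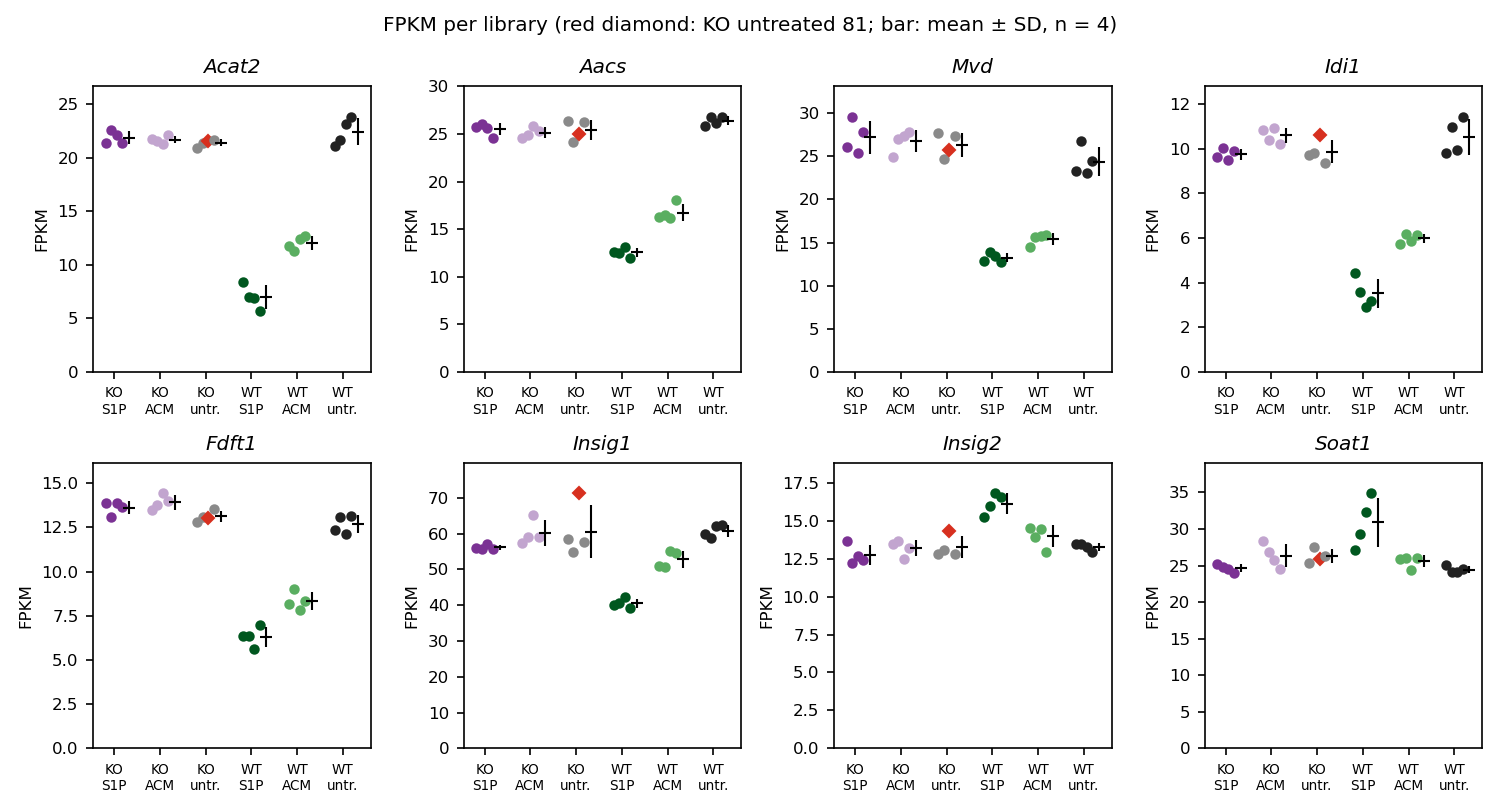
FPKM of 8 genes in each library, KO groups on the left and WT groups on the right of each panel; circles are libraries, the red diamond is KO untreated 81, and the bar beside each group is its mean ± SD (n = 4). Acat2, Aacs, Mvd, Idi1 and Fdft1 are low in WT S1P and WT ACM libraries and level in KO, while Insig2 and Soat1 are highest in WT S1P.

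The mevalonate and isoprenoid steps contributed 7 genes. In WT cells 6 fell with each agent, against 27.2% of all genes with S1P and 9.85% with ACM. Idi1 (chromosome 13, 8885501 to 8892451, plus strand) encodes the isomerase that makes dimethylallyl diphosphate, the starter of isoprenoid chains. In KO cells Idi1 had an FPKM of 9.60, 10.0, 9.48 and 9.88 with S1P, 10.9, 10.4, 10.9 and 10.2 with ACM and 9.72, 9.79 and 9.35 untreated, with 10.6 in KO untreated 81. In WT cells it had 4.41, 3.58, 2.89 and 3.19 with S1P, 5.73, 6.19, 5.88 and 6.11 with ACM and 9.79, 11.0, 9.94 and 11.4 untreated. No WT S1P library reached the lowest WT ACM library, and no WT ACM library reached the lowest WT untreated library. KO S1P libraries overlapped KO untreated, KO ACM libraries did so only through KO untreated 81, and KO S1P lay below KO ACM. The differences were -1.36 ± 0.07 (adjusted p = 1.35e-12) with S1P and -0.72 ± 0.07 (adjusted p = 3.25e-07) with ACM in WT cells. In KO cells they were -0.02 ± 0.07 and 0.09 ± 0.07. Mvd, mevalonate diphosphate decarboxylase, averaged 27.2 ± 1.91, 26.8 ± 1.26 and 26.3 ± 1.42 FPKM in KO S1P, ACM and untreated cells, and 13.2 ± 0.523, 15.4 ± 0.685 and 24.4 ± 1.70 FPKM in WT S1P, ACM and untreated cells (SD, n = 4 each). Its S1P and ACM differences, -0.83 ± 0.05 and -0.63 ± 0.05, were closer to each other than those of Idi1. Hmgcs1 averaged 21.9 ± 0.614, 23.1 ± 1.16 and 22.1 ± 2.08 FPKM in KO S1P, ACM and untreated cells, and 10.6 ± 0.962, 15.1 ± 0.535 and 22.1 ± 1.38 FPKM in WT S1P, ACM and untreated cells (SD, n = 4 each). Mvk averaged 11.1 ± 0.636, 11.2 ± 0.676 and 10.8 ± 0.783 FPKM in KO S1P, ACM and untreated cells, and 6.30 ± 0.634, 9.27 ± 0.697 and 11.8 ± 0.437 FPKM in WT S1P, ACM and untreated cells (SD, n = 4 each). Pmvk, phosphomevalonate kinase, averaged 15.2 ± 0.236, 15.6 ± 1.37 and 14.5 ± 0.368 FPKM in KO S1P, ACM and untreated cells, and 9.74 ± 0.9745, 11.7 ± 1.16 and 15.8 ± 1.16 FPKM in WT S1P, ACM and untreated cells (SD, n = 4 each). Both kinases fell in WT cells, and the differences with ACM were -0.32 ± 0.06 for Mvk and -0.41 ± 0.07 for Pmvk. With S1P the kinases fell by 0.82 ± 0.06 and 0.65 ± 0.07. Fdps, farnesyl diphosphate synthase, was counted at a low level, with 1.27 ± 0.123, 1.14 ± 0.0722 and 1.36 ± 0.1203 FPKM in KO S1P, ACM and untreated cells, and 0.574 ± 0.113, 0.881 ± 0.299 and 1.46 ± 0.279 FPKM in WT S1P, ACM and untreated cells (SD, n = 4 each), and 34 to 154 reads per library. It shares 1124 exon bases on the same strand with Gm43738, so reads may be split between the genes and its level is uncertain. Fdps reached an FPKM of 1 in 17 of 24 libraries, 0 of them with S1P in WT cells. Its differences of -0.64 ± 0.10 (adjusted p = 9.43e-06) and -0.39 ± 0.10 (adjusted p = 0.00604) in log2(FPKM + 1) are on a scale that understates the change of genes this low.

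Ggps1 (chromosome 13, 14050659 to 14063488, minus strand) encodes the synthase that takes farnesyl diphosphate away from sterols towards protein prenylation. In KO cells Ggps1 had an FPKM of 6.25, 5.95, 6.29 and 6.68 with S1P, 6.29, 6.19, 5.89 and 6.38 with ACM and 5.78, 6.07 and 6.06 untreated, with 6.40 in KO untreated 81. The WT libraries had 6.73, 6.18, 6.77 and 6.81 with S1P, 6.39, 5.90, 5.98 and 6.17 with ACM and 5.90, 6.02, 6.42 and 6.17 untreated. The WT S1P libraries overlapped the WT untreated libraries. Ggps1 rose with S1P by 0.10 ± 0.04 (adjusted p = 0.0409) in WT cells, and the difference with ACM was -0.00 ± 0.04 (adjusted p = 0.964). Its S1P call did not hold with TPM scaling (0.07), without a filter on low genes, with only the compared groups in the fit, and without any of WT S1P 25, 27 or 28 or WT untreated 1, 2 or 4 (0.08 to 0.10, adjusted p from 0.0592 to 0.115). Ggps1 overlaps Arid4b on the opposite strand by 257 exon bases, and no strand setting is given.

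Fdft1, Sqle and Lss turn farnesyl diphosphate into lanosterol. All 3 fell in WT cells with both agents, against 27.2% of all genes with S1P and 9.85% with ACM. Fdft1 (chromosome 14, 63145150 to 63179578, minus strand) is squalene synthase, the first enzyme committed to sterols. In KO cells Fdft1 had an FPKM of 13.9, 13.1, 13.9 and 13.6 with S1P, 13.5, 13.7, 14.4 and 14.0 with ACM and 12.8, 13.1 and 13.6 untreated, with 13.0 in KO untreated 81. WT cells gave values of 6.37, 6.35, 5.59 and 6.96 with S1P, 8.16, 9.02, 7.84 and 8.31 with ACM and 12.4, 13.1, 12.1 and 13.1 untreated. Every WT S1P library lay below every WT ACM library, which lay below every WT untreated library. Fdft1 differed by -0.91 ± 0.05 (adjusted p = 1.61e-12) with S1P and -0.55 ± 0.05 (adjusted p = 5.77e-08) with ACM in WT cells. In KO cells the values were 0.05 ± 0.05 and 0.08 ± 0.05, neither called. The gene shares 774 exon bases with Ctsb on the opposite strand, so its absolute level is uncertain. Lss (chromosome 10, 76531588 to 76557138, plus strand), lanosterol synthase, closes the ring system. In KO cells Lss had an FPKM of 7.53, 7.57, 7.51 and 7.46 with S1P, 8.28, 7.92, 8.78 and 7.80 with ACM and 7.39, 7.35 and 7.82 untreated, with 7.95 in KO untreated 81. In WT cells it had 4.63, 4.49, 4.22 and 3.97 with S1P, 5.38, 5.30, 5.65 and 5.62 with ACM and 7.45, 7.60, 8.10 and 7.62 untreated. The WT groups did not overlap, while KO S1P and KO ACM each overlapped KO untreated, with KO S1P below KO ACM throughout. Its differences were -0.71 ± 0.04 (adjusted p = 8.91e-12) with S1P and -0.42 ± 0.04 (adjusted p = 3.29e-07) with ACM in WT cells. Sqle, the epoxidase before it, averaged 24.8 ± 1.66, 24.7 ± 0.823 and 24.6 ± 1.16 FPKM in KO S1P, ACM and untreated cells, and 15.1 ± 0.434, 19.5 ± 0.765 and 24.6 ± 1.02 FPKM in WT S1P, ACM and untreated cells (SD, n = 4 each). It differed by -0.67 ± 0.04 with S1P and -0.32 ± 0.04 with ACM.

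All 8 genes that turn lanosterol into cholesterol fell with S1P in WT cells (27.2% of all genes), and 6 fell with ACM (9.85%). Cyp51, the lanosterol demethylase, had the largest S1P difference among them, -1.01 ± 0.06 (adjusted p = 5.26e-12), and averaged 23.4 ± 0.563, 25.1 ± 0.411 and 24.7 ± 1.74 FPKM in KO S1P, ACM and untreated cells, and 12.1 ± 1.15, 17.4 ± 1.08 and 25.3 ± 1.37 FPKM in WT S1P, ACM and untreated cells (SD, n = 4 each). Nsdhl followed at -0.82 ± 0.07 and Dhcr7, the reductase that finishes cholesterol, at -0.71 ± 0.05. Msmo1, the methylsterol oxidase, and Hsd17b7, the ketosteroid reductase of the same complex, differed by -0.68 ± 0.05 and -0.64 ± 0.06. Dhcr7 averaged 8.61 ± 0.230, 8.60 ± 0.355 and 8.85 ± 0.146 FPKM in KO S1P, ACM and untreated cells, and 4.85 ± 0.494, 6.73 ± 0.270 and 8.57 ± 0.163 FPKM in WT S1P, ACM and untreated cells (SD, n = 4 each). Nsdhl averaged 12.5 ± 0.719, 12.5 ± 0.399 and 12.7 ± 0.903 FPKM in KO S1P, ACM and untreated cells, and 6.56 ± 0.639, 9.23 ± 0.797 and 12.3 ± 1.00 FPKM in WT S1P, ACM and untreated cells (SD, n = 4 each). Both were lowest with S1P, between with ACM and highest untreated by mean in WT cells. Msmo1 averaged 23.3 ± 0.390, 24.97 ± 0.593 and 24.0 ± 2.08 FPKM in KO S1P, ACM and untreated cells, and 14.1 ± 0.833, 18.99 ± 0.712 and 23.1 ± 0.646 FPKM in WT S1P, ACM and untreated cells (SD, n = 4 each). KO untreated libraries had 22.5, 22.9 and 23.4 for Msmo1, with 27.1 in KO untreated 81. Hsd17b7 averaged 7.87 ± 0.222, 8.04 ± 0.401 and 7.79 ± 0.457 FPKM in KO S1P, ACM and untreated cells, and 4.47 ± 0.368, 5.77 ± 0.581 and 7.52 ± 0.545 FPKM in WT S1P, ACM and untreated cells (SD, n = 4 each). With ACM these 5 genes ranged from -0.52 (Cyp51) to -0.27 (Msmo1). The members not called with ACM were Tm7sf2, a sterol reductase, at -0.19 ± 0.07 (adjusted p = 0.0754), and Ebp, the sterol isomerase, at -0.13 ± 0.07 (adjusted p = 0.184). Ebp averaged 22.8 ± 1.49, 23.0 ± 1.29 and 22.7 ± 1.63 FPKM in KO S1P, ACM and untreated cells, and 17.4 ± 1.49, 19.96 ± 0.145 and 22.04 ± 2.32 FPKM in WT S1P, ACM and untreated cells (SD, n = 4 each). It passed without WT untreated 1, at -0.21 (adjusted p = 0.0231), and Tm7sf2 passed without WT ACM 19, at -0.23 (adjusted p = 0.0456). Tm7sf2 averaged 2.68 ± 0.265, 2.87 ± 0.211 and 2.82 ± 0.312 FPKM in KO S1P, ACM and untreated cells, and 1.76 ± 0.297, 2.15 ± 0.208 and 2.58 ± 0.121 FPKM in WT S1P, ACM and untreated cells (SD, n = 4 each). It shares 532 exon bases with Vps51 on the same strand.

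Sc5d (chromosome 9, 42251595 to 42264256, minus strand), the desaturase that acts just before Dhcr7, had the smallest direct difference between the agents of any enzyme from Acat2 to Dhcr7. In KO cells Sc5d had an FPKM of 14.6, 14.2, 15.0 and 15.3 with S1P, 15.8, 15.3, 15.6 and 16.6 with ACM and 15.2, 15.0 and 15.5 untreated, with 16.2 in KO untreated 81. The WT libraries had 11.8, 10.7, 11.2 and 10.7 with S1P, 10.7, 11.3, 12.0 and 11.6 with ACM and 16.0, 15.7, 15.4 and 15.9 untreated. WT S1P and WT ACM libraries overlapped, and both lay below all WT untreated libraries. In KO cells each treated group overlapped untreated, and S1P lay just below ACM. The differences were -0.47 ± 0.04 (adjusted p = 9.26e-10) with S1P and -0.43 ± 0.04 (adjusted p = 6.41e-08) with ACM. The direct difference of WT S1P from WT ACM was -0.04 ± 0.04 (adjusted p = 0.414), with a 95% interval of -0.12 to 0.04. Sc5d was not called in that direct comparison, and the only other gene of the 28 not called there was Erlin1. S1P was lower than ACM for 22 of the 28 genes and higher for 4, Ggps1, Scap, Insig2 and Soat1. Over all genes 23.0% were lower and 18.5% higher with S1P than with ACM in WT cells, 41.5% in all. Calls near the limit here depended on single WT libraries for Fdps, Tm7sf2, Ebp, Ggps1 and Scap, whose adjusted p reached 0.203, 0.178, 0.134, 0.118 and 0.0579 when a WT S1P or WT ACM library was left out. The largest of these differences were -0.71 ± 0.06 for Acat2, -0.64 ± 0.07 for Idi1 and -0.61 ± 0.07 for Stard4. In KO cells S1P and ACM differed for 0 of the 28 genes by limma, with 2 genes, Lss and Sc5d, at an unadjusted p under 0.05. The background there was 4 of 11377 genes (0.0352%).

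The sensing genes split by direction. Srebf2 (chromosome 15, 82147181 to 82205379, plus strand), which encodes SREBP2 and is itself a known target of it, averaged 42.4 ± 1.49, 42.2 ± 1.65 and 43.9 ± 1.85 FPKM in KO S1P, ACM and untreated cells, and 32.4 ± 1.36, 40.6 ± 1.55 and 44.5 ± 1.54 FPKM in WT S1P, ACM and untreated cells (SD, n = 4 each). It differed by -0.45 ± 0.04 (adjusted p = 5.84e-09) with S1P. The ACM difference was -0.13 ± 0.04 (adjusted p = 0.024), a call lost without WT ACM 20 or 21 or WT untreated 2 or 3 (adjusted p from 0.0665 to 0.0740). Insig1 (chromosome 5, 28071363 to 28078662, plus strand) encodes a retention protein for Scap that SREBP2 also switches on, and it had the highest FPKM of the 28 genes. It averaged 56.1 ± 0.724, 60.1 ± 3.54 and 60.6 ± 7.31 FPKM in KO S1P, ACM and untreated cells, and 40.5 ± 1.26, 52.8 ± 2.34 and 60.8 ± 1.72 FPKM in WT S1P, ACM and untreated cells (SD, n = 4 each). The WT differences were -0.57 ± 0.06 (adjusted p = 2.61e-08) and -0.20 ± 0.06 (adjusted p = 0.0145). In KO untreated cells Insig1 stood at 58.3, 54.9 and 57.7, with 71.3 in KO untreated 81.

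Insig2 (chromosome 1, 121304353 to 121332589, minus strand), the partner of Insig1 that does not depend on SREBP2, moved the other way. In KO cells Insig2 had an FPKM of 13.7, 12.2, 12.7 and 12.4 with S1P, 13.5, 13.7, 12.5 and 13.2 with ACM and 12.8, 13.1 and 12.8 untreated, with 14.4 in KO untreated 81. WT cells gave values of 15.2, 15.9, 16.8 and 16.6 with S1P, 14.5, 14.0, 14.5 and 13.0 with ACM and 13.4, 13.5, 13.3 and 12.9 untreated. Every WT S1P library lay above every WT ACM and WT untreated library. It rose with S1P by 0.26 ± 0.04 (adjusted p = 2.59e-05) in WT cells, while the ACM value was 0.07 ± 0.04 (adjusted p = 0.282). Scap (chromosome 9, 110333288 to 110384950, plus strand), the escort of SREBP2, also rose with S1P. In KO cells Scap had an FPKM of 4.67, 4.98, 5.57 and 4.98 with S1P, 5.71, 5.70, 5.15 and 4.87 with ACM and 5.58, 5.49 and 4.84 untreated, with 4.56 in KO untreated 81. In WT cells it had 5.43, 5.93, 6.42 and 5.60 with S1P, 5.05, 5.18, 4.31 and 4.85 with ACM and 4.21, 4.95, 4.60 and 5.39 untreated. WT S1P libraries lay just above all WT untreated libraries, and ACM overlapped untreated. The S1P difference was 0.24 ± 0.07 (adjusted p = 0.00598) and the ACM difference 0.02 ± 0.07 (adjusted p = 0.897). Scap shares 985 exon bases with an antisense locus, 5830462I19Rik. Erlin1, a cholesterol-binding protein of the endoplasmic reticulum known to restrain SREBP, did not pass in any comparison. It averaged 15.4 ± 0.676, 15.6 ± 0.620 and 15.5 ± 0.590 FPKM in KO S1P, ACM and untreated cells, and 15.3 ± 0.427, 15.4 ± 0.614 and 15.3 ± 0.365 in WT cells (SD, n = 4 each). The 95% interval of its WT S1P difference was -0.08 to 0.08.

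The carrier and the storage enzyme moved in opposite directions with S1P. Stard4, a cytosolic sterol carrier and SREBP2 target, averaged 18.6 ± 0.811, 19.1 ± 1.09 and 18.7 ± 0.678 FPKM in KO S1P, ACM and untreated cells, and 8.53 ± 1.47, 13.4 ± 0.639 and 18.7 ± 0.688 FPKM in WT S1P, ACM and untreated cells (SD, n = 4 each). It differed by -1.06 ± 0.07 (adjusted p = 1.25e-10) and -0.45 ± 0.07 (adjusted p = 0.000128). Soat1 (chromosome 1, 156424525 to 156474331, minus strand) esterifies cholesterol for lipid droplets and is the main such enzyme of macrophages. In KO cells Soat1 had an FPKM of 25.2, 24.8, 24.5 and 24.0 with S1P, 28.4, 26.8, 25.7 and 24.6 with ACM and 25.3, 27.6 and 26.3 untreated, with 25.95 in KO untreated 81. The WT libraries had 27.1, 29.3, 32.3 and 34.9 with S1P, 25.9, 26.1, 24.3 and 26.1 with ACM and 25.02, 24.1, 24.1 and 24.5 untreated. All WT S1P libraries exceeded all WT ACM and WT untreated libraries, and they were spread widely. Soat1 rose with S1P by 0.32 ± 0.05 (adjusted p = 3.33e-05), and the ACM difference was 0.06 ± 0.05 (adjusted p = 0.45). In KO cells the S1P difference was -0.09 ± 0.05 and was not called.

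**Figure D3:**
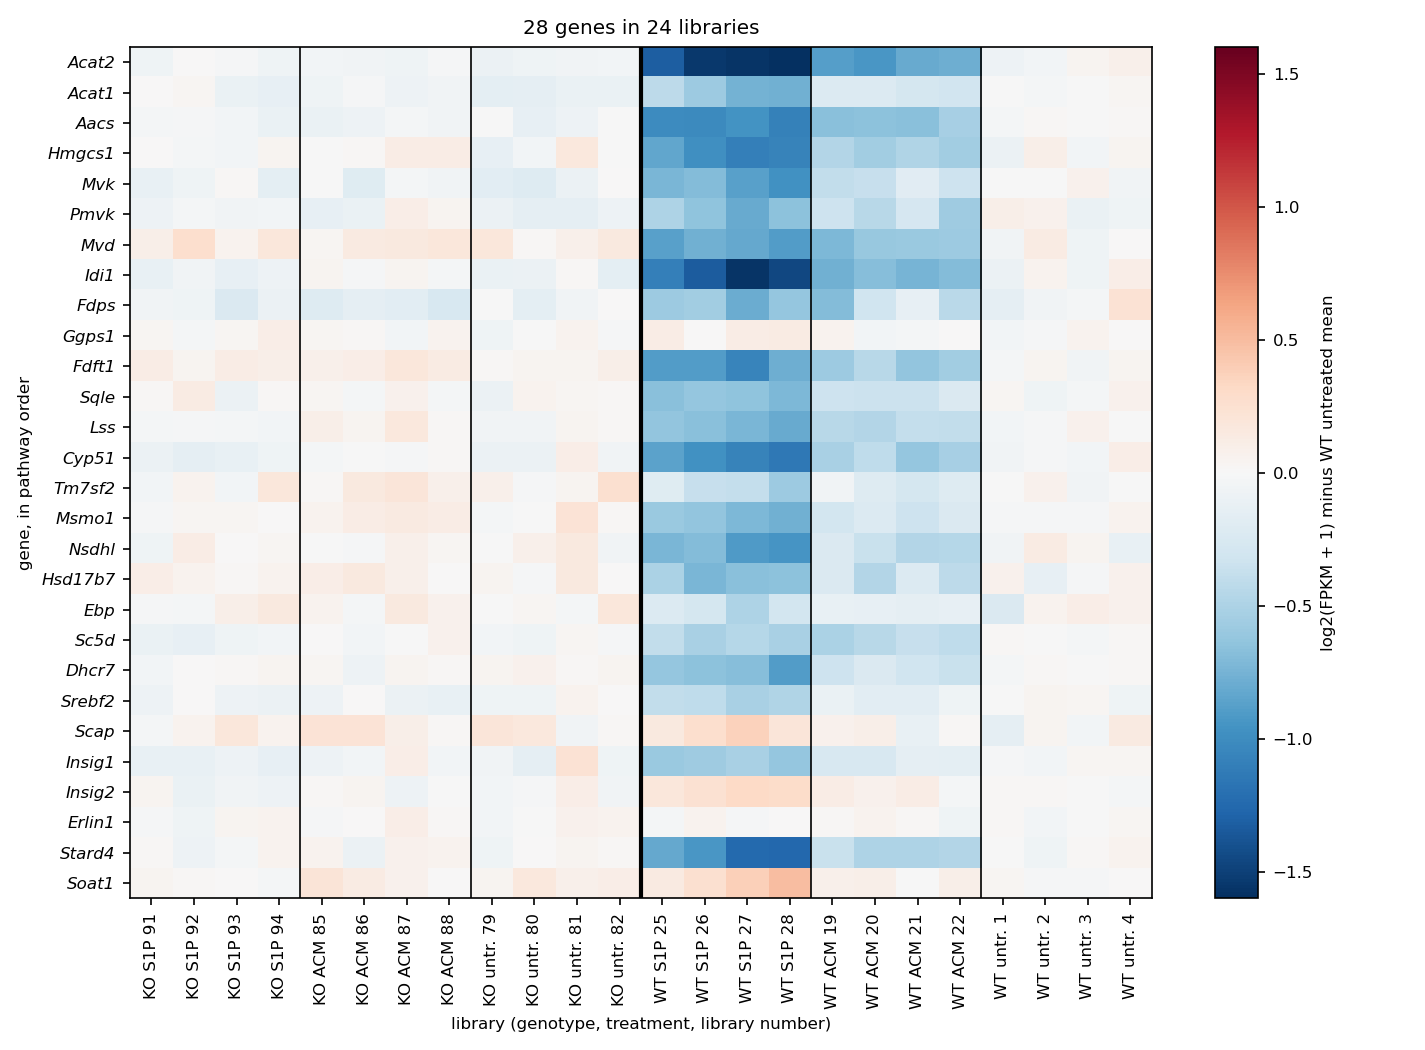
Each cell is the log2(FPKM + 1) of 1 gene in 1 library minus that gene's WT untreated mean, with genes in pathway order down the page and libraries across, KO S1P, ACM and untreated first and WT S1P, ACM and untreated after the thick line. Blue is lower and red higher; WT S1P and WT ACM columns are blue for most genes, and the 12 KO columns are pale.

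The genotypes were next compared within each treatment. In untreated cells KO and WT differed for 0 of the 28 genes by limma, and 1, Acat1, had an unadjusted p under 0.05 (-0.12 ± 0.05). Over all genes 2.47% were called, or 8.16% without KO untreated 81. The 95% intervals of the 28 untreated differences ran from -0.26 to 0.24. Without KO untreated 81, limma again called 0 of the 28 genes, and 2 had an unadjusted p under 0.05. Under S1P, KO cells were higher for 23 of the 28 genes and lower for 3, Scap, Insig2 and Soat1, against a background of 26.9% higher and 25.4% lower, 52.4% in all. Under ACM, KO cells were higher for 21 and lower for none, against 12.5% higher and 15.5% lower, 28% in all. The largest differences under S1P were 1.53 ± 0.06 (adjusted p = 1.27e-13) for Acat2, 1.26 ± 0.07 (adjusted p = 5.42e-12) for Idi1 and 1.05 ± 0.07 (adjusted p = 1.58e-10) for Stard4. Under ACM they were 0.80 ± 0.06 (adjusted p = 3.17e-08) for Acat2, 0.76 ± 0.05 (adjusted p = 6.6e-09) for Mvd and 0.73 ± 0.07 (adjusted p = 2.34e-07) for Idi1. These comparisons share the treated WT libraries with the ones above, so they restate the same WT values against KO cells. Calls near the limit depended on single libraries. Ebp under ACM, 0.20 ± 0.07, was lost without any of KO ACM 85, 87 or 88 or WT ACM 19 to 22 (0.16 to 0.20). Insig1 under ACM, 0.18 ± 0.06, was lost without KO ACM 87 (0.14) or WT ACM 19 or 20 (0.17 and 0.16). Fdps under ACM, 0.20 ± 0.10, passed only without WT ACM 21, at 0.29. Scap under S1P, -0.18 ± 0.07, was lost without any of KO S1P 91, 92 or 94 or WT S1P 26 or 27 (-0.17 to -0.14).

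Whether the response itself differed between genotypes was tested as an interaction, the KO response minus the WT response. For S1P it was called for 26 of the 28 genes, 23 positive and 3 negative, and Ggps1 and Erlin1 were not called. Over all genes 22.5% were positive and 19.4% negative, 41.9% in all. For ACM it was called for 18 genes, all positive, against 7.41% positive and 9.64% negative over all genes, 17.1% in all. The S1P interactions were 1.59 ± 0.09 (adjusted p = 4.79e-11) for Acat2, 1.35 ± 0.10 (adjusted p = 1.46e-09) for Idi1, 1.02 ± 0.05 (adjusted p = 1.09e-11) for Aacs and 0.95 ± 0.07 (adjusted p = 6.74e-10) for Fdft1. The ACM interactions were 0.87 ± 0.09 (adjusted p = 3.2e-06) for Acat2, 0.61 ± 0.05 (adjusted p = 2.22e-07) for Aacs, 0.63 ± 0.07 (adjusted p = 2.79e-06) for Fdft1 and 0.51 ± 0.06 (adjusted p = 6.89e-06) for Lss. By role, the ACM interaction was called for 3 of 3 acetyl-CoA genes, 5 of 7 mevalonate and isoprenoid genes, 3 of 3 squalene genes, 6 of 8 later sterol genes, 0 of 5 sensing genes and 1 of 2 transport and esterification genes, Stard4. Insig1 was 0.20 ± 0.08 (adjusted p = 0.0993) for ACM, and passed without KO untreated 81, at 0.27 (adjusted p = 0.00179). The Scap interaction with S1P, -0.26 ± 0.10, was lost without any of KO S1P 91, 92 or 94, KO untreated 79 or 80, WT S1P 26 or 27 or WT untreated 1 or 3 (-0.25 to -0.21).

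Within groups the 28 genes were compared library by library, and the same counts were not taken over all genes. Among WT S1P libraries, WT S1P 25 held the highest value for 15 of 28 genes and WT S1P 28 the lowest for 14, with median deviations of 0.09 and -0.05 in log2(FPKM + 1) from the group mean. Soat1, which rose, was lowest in WT S1P 25 and highest in WT S1P 28. Among KO untreated libraries, KO untreated 81 held the highest value for 14 of 28 genes, with a median deviation of 0.04. Summed over the 28 genes, FPKM was 494 to 501 in KO S1P, 505 to 524 in KO ACM and 491 to 529 in KO untreated libraries. The sum was 322 to 342 in WT S1P, 399.9 to 404 in WT ACM and 495 to 515 in WT untreated libraries. KO ACM 87 held the highest value for 15 of 28 genes in its group, with a median deviation of 0.04.

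Other genes of the pathway were read from lists written from general knowledge. Of 14 genes of SREBP processing and sterol sensing, S1P raised 7 and lowered 3 in WT cells, against 25.2% raised and 27.2% lowered over all genes. ACM raised 2 and lowered 2 of the 14, against 12.2% and 9.85% over all genes. The median differences of the list were 0.09 with S1P and 0.05 with ACM. Srebf1, which encodes the SREBP of fatty acid synthesis, fell by 0.42 ± 0.04 with S1P and 0.24 ± 0.04 with ACM, and its FPKM averaged 24.7 ± 1.58, 28.1 ± 0.686 and 33.3 ± 0.646 in WT S1P, ACM and untreated cells (SD, n = 4 each). Syvn1, a ubiquitin ligase of the endoplasmic reticulum, rose by 0.67 ± 0.06 with S1P and 0.35 ± 0.06 with ACM. Mylip, the ligase that degrades lipoprotein receptors, rose with S1P (0.46 ± 0.08) and fell with ACM (-0.34 ± 0.08). It averaged 15.8 ± 0.887, 15.3 ± 0.299 and 14.6 ± 2.10 FPKM in KO S1P, ACM and untreated cells, and 19.7 ± 1.96, 10.8 ± 0.794 and 14.0 ± 0.514 FPKM in WT S1P, ACM and untreated cells (SD, n = 4 each). Mylip was at 11.5 FPKM in KO untreated 81, against 15.1 to 16.1 in the other KO untreated libraries. Npc1, which exports cholesterol from lysosomes, rose with S1P (0.30 ± 0.04). Of 6 tested genes of acetyl-CoA supply and ketone use, S1P raised 2 and lowered 3, and ACM raised 1 and lowered 2, beside the same shares over all genes (52.4% called in all with S1P and 22.1% with ACM). Their median differences were -0.18 with S1P and -0.13 with ACM. Acly, ATP citrate lyase, which supplies cytosolic acetyl-CoA, fell by 0.45 ± 0.03 with S1P and 0.24 ± 0.03 with ACM. Oxct1, which uses ketone bodies in mitochondria, fell by 0.81 ± 0.04 with S1P and 0.41 ± 0.04 with ACM. Acss2, acetyl-CoA synthetase, rose with S1P, by 0.72 ± 0.08. Of 11 genes that use isoprenoids for prenylation, dolichol or ubiquinone, S1P raised 3 and lowered 2, and ACM raised 1 and lowered none, no larger a share than the 52.4% and 22.1% called over all genes. Their median differences were 0.04 with S1P and -0.01 with ACM. Fnta, a subunit of the protein prenyltransferases, fell with S1P (-0.24 ± 0.05). In KO cells 0 genes of these 3 lists were called with either agent by limma, where 0.00879% of all genes were called with each. At an unadjusted p under 0.05 there were 3 with S1P, among them Erlin2 (0.09 ± 0.04) and Fnta (0.16 ± 0.05), and 1 with ACM, Nr1h3 (0.17 ± 0.08).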

How the data were processed

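Polyadenylated RNA was sequenced from 24 libraries, and the authors deposited FPKM values in 1 table of 54532 Ensembl genes. The submitters' processing notes list STAR, HISAT2 and STAR-Fusion, featureCounts and StringTie, DESeq and edgeR, and the build GRCm38 (mm10), with no role or strand setting. For 97.0% of 27002 genes, FPKM times exon length came out as whole reads in every library (tolerance 0.05), which gave the depths. No 2 libraries of a group were identical. The chi-square of these reads per degree of freedom was 8.3 to 12.2 between KO ACM 85 or 86 and 87 or 88, and 2.81 and 3.44 within these pairs. Between KO S1P 91 or 93 and 92 or 94 it was 5.23 to 9.33, and 3.64 and 2.86 within. KO untreated 81 gave 18.1 to 21.1 against the rest of its group. WT S1P 25 gave 23.45 and 22.57 against 27 and 28, and WT S1P 26 gave 10.19 and 10.43. Within these WT S1P pairs it was 6.81 for 25 and 26 and 3.07 for 27 and 28. The source of these splits was not tested. GENCODE M21 named 54409 identifiers. Here log2(FPKM + 1) of the 11377 genes with FPKM of at least 1 in at least 4 libraries was fitted with limma 3.58.1 (R 4.3.3), with 6 group means, a mean-variance trend and Benjamini-Hochberg adjustment over all genes; "called" means adjusted p under 0.05, and values after ± are SE for differences and SD for levels. Fold changes of low genes are understated on this scale. On simulated data, 50 genes were altered per effect size in the WT ACM libraries only. They were drawn from genes with higher levels than Fdps and Tm7sf2, so recovery was not simulated at the levels of those genes. Noise was independent between libraries, so splits within groups were not simulated either. The WT ACM test found 39 at a log2 difference of 0.25 and 48 at 0.5, and the ACM interaction 18 and 44, with 12 and 8 unaltered genes called in these tests. KO ACM libraries were left unaltered and 0 genes were called in them, so no recovery was simulated for KO cells. Every library's value is given for the 4 genes with the smallest p in WT S1P, WT ACM and each interaction and for genes called against the majority; other genes came from fixed pathway lists by smallest p. The members and lists were chosen with earlier results of these data known.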

Additional observations from a re-analysis of the deposited data

Results flagged for a closer look

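In 10 of 168 sets of 4 libraries (28 genes in 6 groups) 1 library stood far from the other 3 by Dixon's criterion, a rate near the 1 in 20 that chance gives. Aacs and Sqle were high in WT ACM 22, at 18.02 and 20.7 FPKM, and Soat1 stood apart in WT ACM 21 at 24.3 FPKM. Stard4 stood apart at 17.4 FPKM in KO ACM 86 and at 14.4 FPKM in WT ACM 19. Srebf2 stood apart at 44.7 FPKM in KO S1P 92, Cyp51 at 27.3 FPKM in KO untreated 81, Ggps1 at 6.18 FPKM in WT S1P 26, Msmo1 at 24.1 FPKM in WT untreated 4 and Ebp at 18.6 FPKM in WT untreated 1.

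The response differed between KO and WT cells, by the limma interaction, for 26 of the 28 genes with S1P and 18 with ACM. Over all genes the shares were 41.9% and 17.1%. With S1P the differences in log2(FPKM + 1), the KO response minus the WT response, were Acat2 1.59, Acat1 0.71, Aacs 1.02, Hmgcs1 0.99, Mvk 0.85, Pmvk 0.71, Mvd 0.88, Idi1 1.35, Fdps 0.58, Fdft1 0.95, Sqle 0.68, Lss 0.69, Cyp51 0.93, Tm7sf2 0.33, Msmo1 0.64, Nsdhl 0.79, Hsd17b7 0.65, Ebp 0.33, Sc5d 0.41, Dhcr7 0.68, Srebf2 0.40, Scap -0.26, Insig1 0.47, Insig2 -0.32, Stard4 1.05 and Soat1 -0.41. With ACM they were Acat2 0.87, Acat1 0.32, Aacs 0.61, Hmgcs1 0.58, Mvk 0.37, Pmvk 0.50, Mvd 0.65, Idi1 0.82, Fdft1 0.63, Sqle 0.32, Lss 0.51, Cyp51 0.54, Msmo1 0.33, Nsdhl 0.36, Hsd17b7 0.38, Sc5d 0.46, Dhcr7 0.27 and Stard4 0.48.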

How the results depend on the processing

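The number of the 28 genes called stayed within 1.5 times the reported number in all 11 comparisons under every alternative. Those were a pseudocount of 0.1, no filter, a filter at FPKM 5 (which leaves 26 of the genes), TPM scaling, median-ratio scaling, quantile normalization, robust eBayes, only the compared groups, and leaving out each library. With a library left out, WT cells had 26 to 27 calls with S1P, 20 to 22 with ACM and 21 to 25 for S1P against ACM. KO against WT had 25 to 26 calls under S1P and 19 to 21 under ACM, and the interactions 25 to 26 for S1P and 18 to 19 for ACM. The comparisons within KO cells and between untreated KO and WT cells kept 0 calls in every setting run. With TPM scaling the median over all genes shifted by -0.11 in WT ACM and by 0.12 in the ACM interaction.

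Single calls also moved: Fdps in WT ACM was lost with only the compared groups (adjusted p = 0.0535), Mvd and Pmvk in S1P against ACM were lost with TPM scaling (adjusted p = 0.136 and 0.101), and Ebp and Tm7sf2 in WT ACM passed with it (adjusted p = 0.0297 and 0.0194). Scap was lost without a filter in KO against WT under S1P (adjusted p = 0.0862), as was Ebp under ACM (adjusted p = 0.0844). Insig1 in the ACM interaction passed with TPM scaling (adjusted p = 0.0362) and quantile normalization (adjusted p = 0.0278), and Srebf2 in KO against WT under ACM passed with quantile normalization (adjusted p = 0.0322). The S1P interaction of Scap was lost without a filter, with TPM scaling and with only the compared groups (adjusted p = 0.0975, 0.0736 and 0.0578).

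Signs turned only for differences that were not called, and the cause was not tested. With TPM scaling the WT ACM differences were -0.0905 for Scap, -0.0430 for Insig2, -0.11 for Erlin1 and -0.0523 for Soat1. The ACM interaction was then 0.0366 for Insig2 and 0.0524 for Soat1, S1P against ACM in WT cells was 0.0317 for Sc5d and 0.0688 for Erlin1, and Erlin1 in KO against WT under S1P was -0.0495. Median-ratio scaling gave Erlin1 0.00432 in WT S1P and -0.00239 in the ACM interaction. Quantile normalization gave 0.00287 for Ggps1 in WT ACM, and for Erlin1 0.00855 in WT S1P, -0.0104 in WT ACM, 0.0190 in S1P against ACM and -0.00723 in KO against WT under S1P. With libraries left out, Scap ran from -0.0322 to 0.0660 in WT ACM and from -0.00859 to 0.0896 in the ACM interaction, and Ggps1 from -0.0224 to 0.0159 in WT ACM. Erlin1 ran from -0.0170 to 0.0121 in WT S1P, -0.0114 to 0.0314 in WT ACM, -0.0316 to 0.0113 in S1P against ACM, -0.0130 to 0.0286 in KO against WT under S1P, -0.00649 to 0.0363 under ACM, -0.0316 to 0.0105 in the S1P interaction and -0.0245 to 0.0188 in the ACM interaction.

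Fdps, at 34 to 154 reads per library, is the gene that depth limits most. No paired analysis was possible because no groups share a replicate number.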
